A study of Mus musculus with 12 samples.

Results

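The CXC and CX3C chemokines described here are 9 mouse genes, Cxcl1, Cxcl2, Cxcl9, Cxcl10, Cxcl11, Cxcl12, Cxcl13, Cxcl16 and Cx3cl1, measured in the epileptic hippocampus after a systemic inflammatory stimulus. They were found as the transcript probes that carry these names in the array files. This gave 12 of the 41174 probes. A probe was tested where the scanner software called its signal well above background throughout at least 1 group of 3 arrays. This left 11 of the 12 probes, from 8 of the 9 genes, among 27683 probes in all. Cxcl2, the gene left out, had no array of 12 with such a call.

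The arrays hold whole hippocampus of male C57BL/6N mice aged 12 weeks, 3 animals in each of 4 groups. All animals, the saline groups included, had been given 50 nl of 20 mM kainate, a glutamate agonist that triggers seizures, in the left dorsal hippocampus and had chronic seizures when the experiment began 3 weeks later. The LPS groups then received 100 µg/kg of lipopolysaccharide (LPS) from Salmonella enterica serotype abortus equi into the abdominal cavity and were dissected after 4 h or after 24 h, and the saline groups received saline and were dissected at the same times. The kainate injection was on 1 side, the labels do not give the side dissected, and no group without kainate was analysed here.

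Chemokines are small proteins that direct the movement of leukocytes and other cells through G protein-coupled receptors, and the CXC and CX3C classes are named for the spacing of their first conserved cysteines. Cxcl1 and Cxcl2 act on Cxcr2 and attract neutrophils, Cxcl9, Cxcl10 and Cxcl11 are induced by interferons and act on Cxcr3 of T and NK cells, Cxcl13 acts on Cxcr5 of B cells, and Cxcl16 is made as a membrane-bound protein that binds Cxcr6. Cxcl12, which acts on Cxcr4 and is bound by Cxcr7, is made at rest by vessels and neurons. Cx3cl1 (fractalkine) is made largely by neurons in the brain, and its receptor Cx3cr1 is carried by microglia.

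The upstream sequences of Cxcl1, Cxcl2 and Cxcl10 are shown because NF-kappaB and interferon-activated factors are their textbook inducers, with that of Cxcl12, which fell after LPS, for comparison. The RefSeq promoter table held 7 of the 9 genes, Cxcl11 and Cxcl16 being the others, and the 250 bases before each gene's start were searched on both strands for 3 patterns. These were GGG and TTCC with any 3 bases between (an NF-kappaB site), a pair of GAAA with any 2 bases between (an interferon-stimulated response element) and TTCNNNGAA (a gamma-activated site). Over 32851 promoters of the same length, 4.65% held the first, 2.98% the second and 7.02% the third. The following sequences run 5′ to 3′ in the direction of the gene and end at the base before its start, with matches in capitals.
Cxcl1 (GRCm38.p6, chr5:90890995-90891244, + strand): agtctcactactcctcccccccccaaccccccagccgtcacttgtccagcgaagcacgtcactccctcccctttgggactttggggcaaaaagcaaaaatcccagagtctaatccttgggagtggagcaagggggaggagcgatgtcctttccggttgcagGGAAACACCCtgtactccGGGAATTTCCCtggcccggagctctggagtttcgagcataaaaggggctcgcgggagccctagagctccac
Cxcl2 (GRCm38.p6, chr5:90903649-90903898, + strand): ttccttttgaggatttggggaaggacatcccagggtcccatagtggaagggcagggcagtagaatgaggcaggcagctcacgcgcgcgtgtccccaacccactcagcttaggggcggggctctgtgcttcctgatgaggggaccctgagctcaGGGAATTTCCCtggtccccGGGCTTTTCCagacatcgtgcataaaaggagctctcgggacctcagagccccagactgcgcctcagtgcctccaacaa
Cxcl10 (GRCm38.p6, chr5:92348890-92349139, - strand): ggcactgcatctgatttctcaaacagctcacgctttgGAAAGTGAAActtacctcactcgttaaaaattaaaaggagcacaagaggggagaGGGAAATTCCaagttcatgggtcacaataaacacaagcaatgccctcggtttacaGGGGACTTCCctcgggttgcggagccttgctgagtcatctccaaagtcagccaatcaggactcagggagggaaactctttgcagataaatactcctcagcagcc
Cxcl12 (GRCm38.p6, chr6:117168285-117168534, + strand): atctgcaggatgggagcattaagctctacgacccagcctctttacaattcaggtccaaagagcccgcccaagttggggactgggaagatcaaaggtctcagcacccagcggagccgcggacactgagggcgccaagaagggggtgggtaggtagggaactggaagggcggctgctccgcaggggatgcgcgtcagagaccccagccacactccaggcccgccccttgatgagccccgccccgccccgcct

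The windows of Cxcl1 and Cxcl2 each held 3 matches to the NF-kappaB pattern, of which a pair overlap as the opposite strands of 1 run of letters, GGGAATTTCCC. Counting the base before the start as -1, that run begins at -71 in Cxcl1 and at -97 in Cxcl2. The window of Cxcl10 held 2 NF-kappaB matches, GGGAAATTCC and GGGGACTTCC, and 1 match to the interferon-stimulated response element, GAAAGTGAAA, which begins at -213. No match to the 3 patterns was in the windows of Cxcl9 and Cxcl13, which rose after LPS, or in those of Cxcl12 and Cx3cl1. A match describes letters and is not a measured binding site.

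Levels below are log2 processed intensities minus the 75th percentile of the same array, so that 0 is the 75th percentile of that array. Differences are LPS minus saline on this log2 scale with the standard error (SE) of a limma fit to all 12 arrays, tested two-sided. A call means that the p adjusted by Benjamini-Hochberg over the 27683 probes was under 0.05. The 75th percentile of intensity was 669 to 739 on the LPS 4 h arrays and 372 to 396 on the saline 4 h arrays, against 722 to 955 (LPS 24 h) and 740 to 862 (saline 24 h). Probes well above background made up 58.2% to 61.4% (LPS 4 h), 53.9% to 55% (saline 4 h), 69% to 70.9% (LPS 24 h) and 65.1% to 66.4% (saline 24 h). The saline 4 h arrays thus stood apart from the other 9 in overall brightness. The 4 h and 24 h arrays were also scanned on separate days, so scan day and time after injection cannot be told apart. Each of 6 slides held 1 LPS and 1 saline array of the same time, and within-slide values are differences between those arrays. Below background is used here for a probe not well above it by the scanner's call. All 10 markers of hippocampal neurons passed the filter.

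At 4 h after LPS, 6 of the 11 chemokine probes were higher than in saline, 4 were lower and 1 was neither. Over all probes tested, 31.6% were called higher and 39.4% lower at this time, so calls alone were common. The median difference of the 11 was 0.57, against -0.08 over all probes. At 24 h, 7 of the 11 were higher, 2 were lower and 2 were neither, where 20.8% of all probes were called higher and 20.9% lower. The median of the 11 was then 1.34 (0.96 with 2 probes at their lower bounds), against 0 over all probes. The probes of Cxcl1, Cxcl9, Cxcl10, Cxcl11, Cxcl13 and 1 probe of Cxcl16 were higher at both times, a pattern that 6.82% of all probes showed. Since these are whole-tissue samples, fewer cells of a type and less RNA per cell cannot be told apart.

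**Figure D1:**
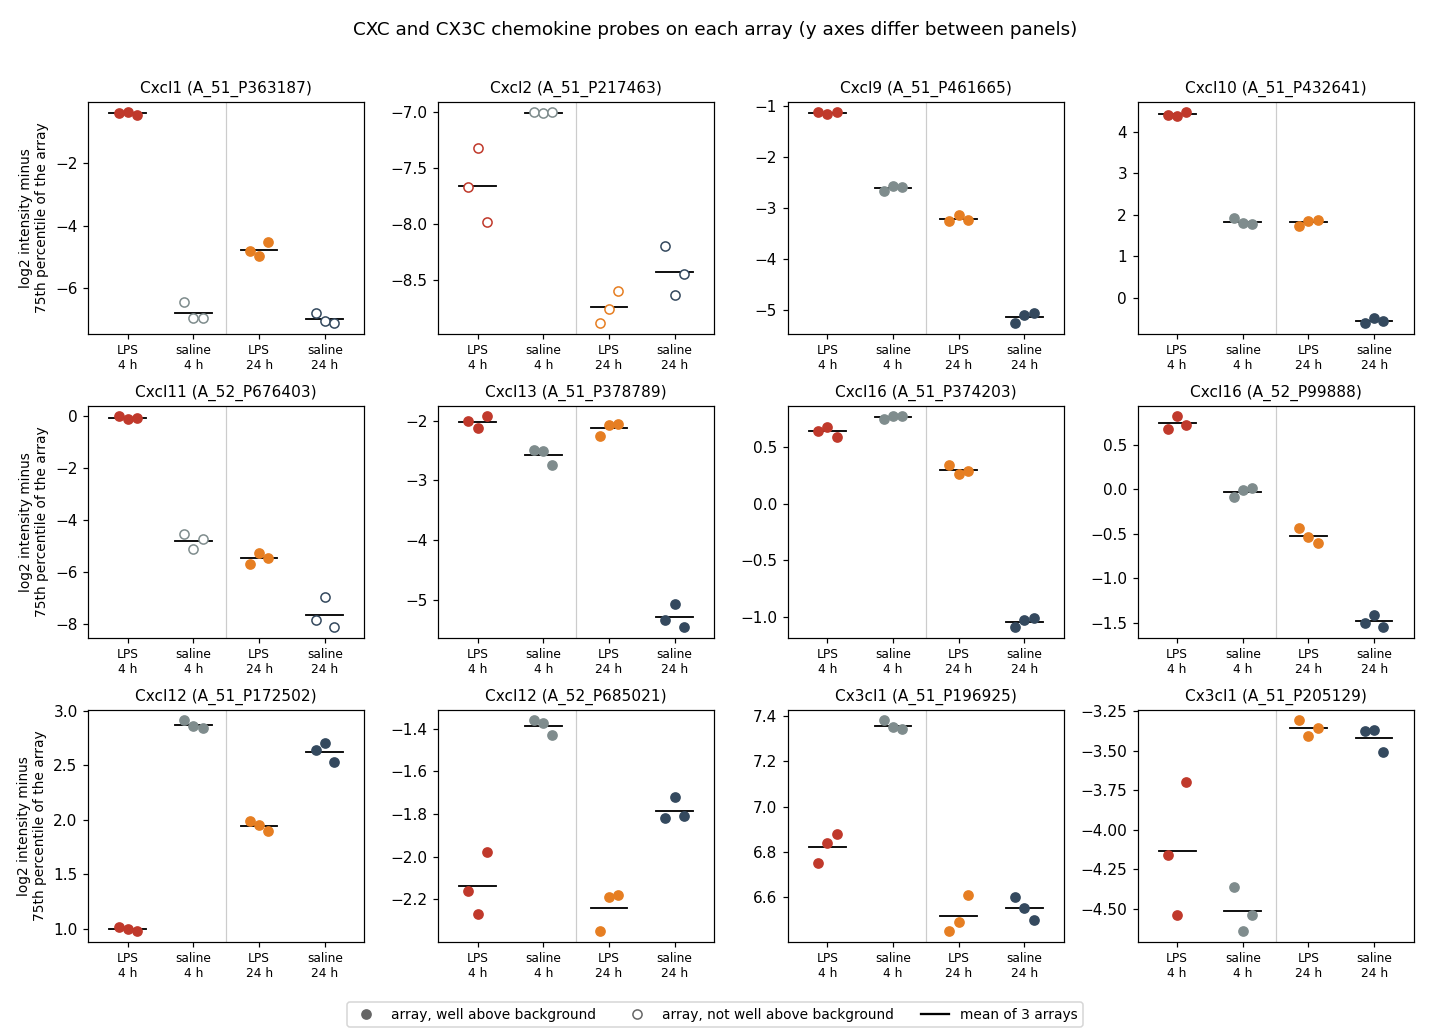
Level of each chemokine probe (log2 intensity minus the 75th percentile of the array) on each of the 12 arrays, by group, with the mean of 3 as a bar. Open points were not well above background: they are all of Cxcl2 and the saline arrays of Cxcl1 and Cxcl11. Cxcl1, Cxcl9, Cxcl10 and Cxcl11 peak in LPS 4 h, while the Cxcl12 probes are highest in saline.

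Among the neutrophil-attracting ligands, Cxcl1 (probe A_51_P363187, mm9 chr5:91321845-91321904, + strand) was switched on by LPS at 4 h. Its processed intensity was 533, 509 and 464 on the LPS 4 h arrays, against 4, 2.94 and 2.99 on the saline 4 h arrays, where it was not well above background. The groups were far apart, and the probe was at least 20.1-fold higher after LPS, a bound set by the dimmest probe called above background on each saline array (adjusted p = 7.7e-10). At 24 h the intensity was 31.9, 27.7 and 29.8 in LPS, against 7.4, 5.75 and 5.1 in saline, again not well above background in saline. The probe was then at least 2.82-fold higher (adjusted p = 3.43e-06). Between the LPS groups themselves Cxcl1 was lower at 24 h (LPS 24 h minus LPS 4 h, -4.37 ± 0.16, adjusted p = 8.71e-09). The response at 24 h minus that at 4 h was -4.17 ± 0.22 (adjusted p = 1.48e-07), a fitted value that rests on saline signals below background. Its paralogue Cxcl2 (A_51_P217463, chr5:91334534-91334593), which carries the same NF-kappaB run of letters, had intensities of 2.51 to 4.11 in LPS 4 h and 2.75 to 2.93 in saline 4 h, none of them well above background, so no fold is given.

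Neutrophil markers moved with Cxcl1. Of 7 neutrophil markers that passed the filter, 6 were higher and 1 lower at 4 h, and 5 were higher and 0 lower at 24 h, while Elane was below background throughout and Camp rose above it on at most 1 array. With 1 probe per gene, 29.1% of all genes were higher and 44.2% lower at 4 h, and 22.7% were higher and 22% lower at 24 h. With normexp 2 markers were higher and 1 lower at 4 h, and 3 were higher at 24 h with normexp and in the deposited matrix. The summed level of the list, in multiples of the array's 75th percentile, was 6.76 to 6.99 in LPS 4 h and 1.31 to 1.39 in saline 4 h, and 2.28 to 2.37 in LPS 24 h and 1.14 to 1.17 in saline 24 h. Their part in the Cxcl1 result was not tested.

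The interferon-inducible ligands of Cxcr3 rose at both times. Cxcl10 (A_51_P432641, chr5:92775781-92775840, - strand) had levels of 4.41, 4.39 and 4.47 in LPS 4 h, against 1.92, 1.81 and 1.77 in saline 4 h. The difference was 2.59 ± 0.054, which is 6-fold (adjusted p = 3.62e-10), and within the 3 slides of that time it ran from 2.54 to 2.61. In LPS 24 h the levels were 1.74, 1.84 and 1.88, against -0.61, -0.48 and -0.57 in saline 24 h. The difference of 2.38 ± 0.054, or 5.19-fold (adjusted p = 2.57e-09), ran from 2.32 to 2.45 within slides, and both groups lay lower than at 4 h. The 2 responses differed by -0.21 ± 0.077 (adjusted p = 0.0347), a call that 7 of the 12 omissions of a single array ended. In order of level, LPS 4 h was highest, LPS 24 h and saline 4 h did not differ beyond their spread (LPS 24 h minus saline 4 h, -0.01, adjusted p = 0.823), and saline 24 h was lowest. Before scaling, the mean intensity was 2893 in LPS 24 h and 1305 in saline 4 h, so the likeness of these groups depends on the scaling.

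Cxcl9 (A_51_P461665, chr5:92752191-92752250, - strand), the ligand most tied to interferon gamma, also rose at both times. Its levels were -1.13, -1.16 and -1.13 in LPS 4 h, against -2.67, -2.58 and -2.6 in saline 4 h, a difference of 1.47 ± 0.053 or 2.78-fold (adjusted p = 7.45e-09). At 24 h they were -3.25, -3.15 and -3.24 in LPS, against -5.26, -5.1 and -5.06 in saline, a difference of 1.93 ± 0.053 or 3.8-fold (adjusted p = 6.02e-09). The arrays of LPS and saline did not overlap at either time, and within slides the difference ran from 1.44 to 1.53 at 4 h and from 1.82 to 2.01 at 24 h. The response was larger at 24 h by 0.45 ± 0.075 (adjusted p = 0.000419) with this background treatment, but -0.1 with normexp background correction (adjusted p = 0.473) and -0.36 in the deposited matrix (adjusted p = 0.000291), which changes background and scaling together, so the direction was not settled. All 4 groups differed in level, in the order LPS 4 h, saline 4 h, LPS 24 h and saline 24 h from high to low. Before scaling, the mean intensity was 301 in LPS 4 h, 59.6 in saline 4 h, 88.4 in LPS 24 h and 21.7 in saline 24 h. The order of saline 4 h and LPS 24 h thus depends on the scaling.

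Cxcl11 (A_52_P676403, chr5:92790123-92790274, - strand, a span that crosses a gap in the genome) is listed by RefSeq as a transcribed pseudogene in the reference strain, so its RNA is measured here and not a chemokine protein. Its levels were -0.02, -0.14 and -0.09 in LPS 4 h, against -4.55, -5.11 and -4.73 in saline 4 h, where it was below background. It was at least 24.1-fold higher at 4 h (adjusted p = 1.27e-07). In LPS 24 h the levels were -5.7, -5.27 and -5.45, against -7.85, -6.97 and -8.11 in saline 24 h, again below background, and it was at least 1.74-fold higher (adjusted p = 0.00014). The call at 24 h was lost with normexp (adjusted p = 0.26) and in the deposited matrix (adjusted p = 0.0893). Among the LPS arrays, Cxcl11 was lower at 24 h (LPS 24 h minus LPS 4 h, -5.39 ± 0.26, adjusted p = 6.3e-08).

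Cxcl13, the B cell chemokine, and 1 of the 2 probes of Cxcl16 had their larger response at 24 h. Cxcl13 (A_51_P378789, chr5:96389861-96389920, + strand) had levels of -2, -2.13 and -1.93 in LPS 4 h, against -2.49, -2.51 and -2.75 in saline 4 h. The difference was 0.57 ± 0.11, or 1.48-fold (adjusted p = 0.000897), and was 0.22 with normexp (adjusted p = 0.113). Within slides it ran from 0.52 to 0.62 at 4 h and from 2.99 to 3.4 at 24 h. In LPS 24 h the levels were -2.25, -2.08 and -2.06, against -5.33, -5.07 and -5.45 in saline 24 h. The 24 h difference of 3.16 ± 0.11, or 8.93-fold (adjusted p = 2.76e-08), was the largest of the chemokine probes measured in both groups at that time. The response was larger at 24 h by 2.59 ± 0.15 (adjusted p = 3.21e-07). The level after LPS was not called different between the times (LPS 24 h minus LPS 4 h, -0.11 ± 0.11, adjusted p = 0.391), while the saline level was lower at 24 h (saline 24 h minus saline 4 h, -2.7 ± 0.11, adjusted p = 5.02e-09). Markers of B cells, which carry the Cxcl13 receptor, were few: 1 of 3 that passed the filter was higher at 24 h and 1 was lower at 4 h, and their summed level was 0.229 to 0.242 in LPS 24 h and 0.142 to 0.166 in saline 24 h. Among all genes, 22.7% were higher at 24 h and 44.2% lower at 4 h, so 1 of 3 is close to both shares. The part of B cells in the Cxcl13 result was not tested.

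Cxcl16 was measured by a pair of probes that disagreed at 4 h. For A_52_P99888 (chr11:70267780-70267839, - strand), levels were 0.68, 0.82 and 0.72 in LPS 4 h, against -0.09, -0.01 and 0.01 in saline 4 h, a difference of 0.77 ± 0.06 (adjusted p = 1.27e-06). For A_51_P374203 (chr11:70269521-70272262, - strand, a span over a gap), they were 0.64, 0.68 and 0.59 in LPS 4 h, against 0.75, 0.77 and 0.77 in saline 4 h, a difference of -0.12 ± 0.035 (adjusted p = 0.00917). That small drop was not called with normexp (-0.1, adjusted p = 0.243) or in the deposited matrix (-0.08, adjusted p = 0.163). Before scaling, the intensity of A_51_P374203 had the opposite order, 956 to 1094 in LPS 4 h and 592 to 641 in saline 4 h. At 24 h both probes were higher after LPS. A_51_P374203 stood at 0.34, 0.26 and 0.29 in LPS, against -1.09, -1.03 and -1.01 in saline, which is 1.34 ± 0.035 or 2.53-fold (adjusted p = 4.77e-09). A_52_P99888 stood at -0.43, -0.54 and -0.6 in LPS, against -1.5, -1.41 and -1.55 in saline, which is 0.96 ± 0.06 or 1.95-fold (adjusted p = 1.51e-06). The response of A_51_P374203 was larger at 24 h by 1.46 ± 0.049 (adjusted p = 1.05e-08), whereas that of A_52_P99888 was not called different (0.19 ± 0.084, adjusted p = 0.0731). Within slides A_51_P374203 ran from -0.16 to -0.09 at 4 h and from 1.29 to 1.42 at 24 h, and A_52_P99888 from 0.69 to 0.82 and from 0.86 to 1.08.

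**Figure D2:**
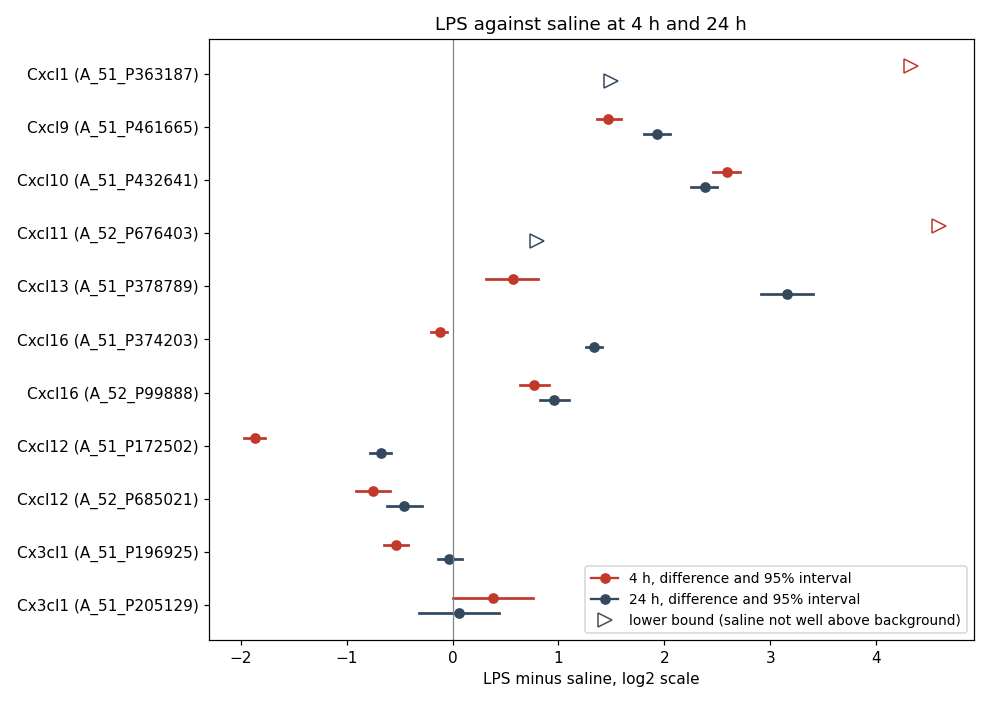
LPS minus saline for the 11 chemokine probes that passed the filter, at 4 h and 24 h, on the log2 scale, with 95% intervals of the fit as lines. Triangles are lower bounds where saline was not well above background. Cxcl13 and Cxcl16 A_51_P374203 lie further right at 24 h, Cxcl1 and Cxcl11 at 4 h, and the Cxcl12 probes lie left of 0 at both times.

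Cxcl12 fell at both times, on both of its probes. For A_51_P172502 (chr6:117131227-117131286, + strand), which the files assign to transcript NM_001012477, levels were 1.02, 1 and 0.98 in LPS 4 h, against 2.91, 2.86 and 2.84 in saline 4 h. The difference was -1.87 ± 0.045, that is 3.66-fold lower (adjusted p = 7.12e-10), with -1.93 to -1.84 within slides (at 24 h, -0.74 to -0.63). At 24 h levels were 1.99, 1.95 and 1.9 in LPS, against 2.64, 2.7 and 2.53 in saline, a difference of -0.68 ± 0.045, or 1.6-fold lower (adjusted p = 2.37e-06). The drop was smaller at 24 h, by 1.19 ± 0.063 (adjusted p = 1.52e-07). From high to low the order was saline 4 h, saline 24 h, LPS 24 h and LPS 4 h, each neighbour being called different. Before scaling, the mean intensity was 2668 in saline 4 h, 4755 in saline 24 h, 3176 in LPS 24 h and 1326 in LPS 4 h, so the place of saline 4 h depends on the scaling.

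The other Cxcl12 probe, A_52_P685021 (chr6:117124474-117124533, + strand), which the files assign to transcript NM_021704, showed a smaller drop. Its levels were -2.16, -2.27 and -1.98 in LPS 4 h, against -1.36, -1.37 and -1.43 in saline 4 h, a difference of -0.75 ± 0.073 (adjusted p = 7.31e-06). Before scaling its intensity was 136 to 160 in LPS 4 h and 137 to 142 in saline 4 h, so the drop at 4 h is one relative to the rest of each array. In LPS 24 h levels were -2.35, -2.19 and -2.18, against -1.82, -1.72 and -1.81 in saline 24 h, a difference of -0.46 ± 0.073 (adjusted p = 0.000822), which was not called with normexp (-0.35, adjusted p = 0.0743). At 24 h its intensity was lower after LPS before scaling too, at 151 to 190, against 202 to 235 in saline. Within slides the scaled difference ran from -0.84 to -0.62 at 4 h and from -0.53 to -0.37 at 24 h.

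Cx3cl1 did not behave alike on its probes and its direction at 4 h depended on the scaling. On A_51_P196925 (chr8:97306185-97306244, + strand), a very bright probe, levels were 6.75, 6.84 and 6.88 in LPS 4 h, against 7.38, 7.35 and 7.34 in saline 4 h, a difference of -0.53 ± 0.051 (adjusted p = 6.24e-06). Its unscaled intensity was 74819 to 75500 in LPS 4 h and 58590 to 60985 in saline 4 h, the opposite order. With quantile normalization the difference was 0.02 (adjusted p = 0.738), and in the deposited matrix 0.01 (adjusted p = 0.929). At 24 h levels were 6.45, 6.49 and 6.61 in LPS, against 6.6, 6.55 and 6.5 in saline, and these overlapped, with a difference of -0.03 and a 95% interval of -0.14 to 0.09 (adjusted p = 0.702). The dim probe A_51_P205129 (chr8:97296742-97296801, + strand) had levels of -4.16, -4.54 and -3.7 in LPS 4 h, against -4.36, -4.64 and -4.54 in saline 4 h. These overlapped, and the difference of 0.38 ± 0.17 was not called (adjusted p = 0.0704), but it was called without the second LPS 4 h array (0.58, adjusted p = 0.00317), with the slide as a block (adjusted p = 0.0396), with array weights (adjusted p = 0.0486) and over only the probes detected on all 12 arrays (adjusted p = 0.0462). With normexp it was -0.08 (adjusted p = 0.75). At 24 h it was not called either, at 0.06 with an interval of -0.32 to 0.44 (adjusted p = 0.814). Within slides A_51_P196925 ran from -0.6 to -0.5 at 4 h and from -0.14 to 0.12 at 24 h, and A_51_P205129 from 0 to 0.66 and from -0.04 to 0.15.

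The difference between the probes of a gene was also compared within each array, where the single value subtracted from each array cancels. Background treatment and quantile normalization can act differently on dim and bright probes, and so need not cancel. For Cxcl12 (A_51_P172502 minus A_52_P685021) it averaged 3.14 in LPS 4 h and 4.26 in saline 4 h, and 4.19 in LPS 24 h and 4.41 in saline 24 h. For Cxcl16 (A_51_P374203 minus A_52_P99888) it averaged -0.1 in LPS 4 h and 0.79 in saline 4 h, and 0.82 in LPS 24 h and 0.45 in saline 24 h. For Cx3cl1 (A_51_P196925 minus A_51_P205129) it averaged 10.96 in LPS 4 h and 11.87 in saline 4 h, and 9.88 in LPS 24 h and 9.97 in saline 24 h. With the processing used here, the 3 LPS arrays lay below the 3 saline arrays for each gene at 4 h, and for Cxcl12 at 24 h as well. For Cx3cl1 the separation at 4 h depended on the processing. LPS minus saline for A_51_P196925 and A_51_P205129 was -0.53 and 0.38 here, and -0.52 and -0.08 with normexp. It was 0.02 and 0.2 with quantile normalization, and 0.01 and 0.03 in the deposited matrix. With 3 arrays against 3, an exact two-sided permutation test cannot go below p = 0.1. That was its value for each gene at 4 h and for Cxcl12 and Cxcl16 at 24 h, and 0.2 for Cx3cl1 at 24 h.

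**Figure D3:**
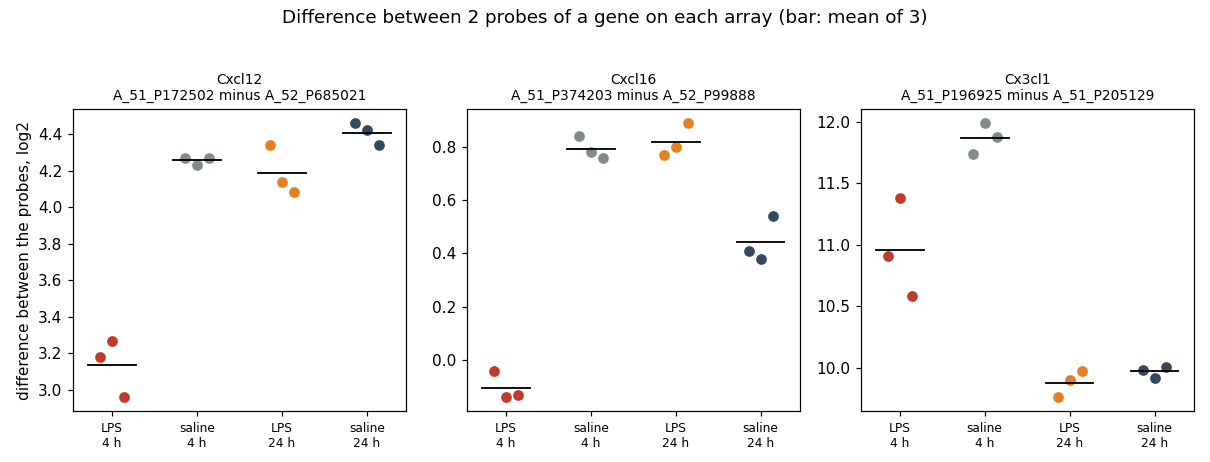
Difference in level between the probes of Cxcl12, of Cxcl16 and of Cx3cl1 on each array, on the log2 scale, by group, with the mean of 3 as a bar. With the processing used here, the LPS 4 h arrays lie below the saline 4 h arrays in each panel, with no overlap.

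Chemokine levels also differed between the saline groups. Of the 11 probes, 9 were lower in saline 24 h than in saline 4 h, 1 was higher (Cx3cl1 A_51_P205129) and 1 was neither (Cxcl1, below background in both), where 41.5% of all probes were called lower and 38% higher. The 9 include Cxcl11, which was below background in both saline groups. The difference was -2.53 ± 0.053 for Cxcl9, -2.39 ± 0.054 for Cxcl10 and -2.7 ± 0.11 for Cxcl13. It was -1.81 ± 0.035 and -1.46 ± 0.06 for the Cxcl16 probes, and -0.24 ± 0.045 and -0.4 ± 0.073 for the Cxcl12 probes. Before scaling, the Cxcl12 probes had the opposite order, with mean intensities of 4755 and 223 in saline 24 h and 2668 and 140 in saline 4 h. So did Cx3cl1 A_51_P196925, at 72079 in saline 24 h and 59884 in saline 4 h. These drops are thus relative to the rest of each array. With the scaling used here, the choice of control set the sign of several results at 24 h. Before scaling, the mean intensity of Cxcl9 was 88.4 in LPS 24 h and 59.6 in saline 4 h. That of Cxcl16 was 1007 and 620 on A_51_P374203, and 573 and 358 on A_52_P99888. Their lower levels against saline 4 h are thus relative to the rest of each array. Against the saline 24 h arrays, LPS 4 h gave 8 probes higher and 3 lower, with a median of 2.23 (all probes, -0.02, of which 35.5% were higher and 35.3% lower). Against the saline 4 h arrays, LPS 24 h gave 3 higher, 7 lower (Cxcl11 among them, which was below background in saline 4 h but not in LPS 24 h, so that this call rests on an unmeasured level) and 1 neither, with a median of -0.5 (all probes, 0.04, of which 39.9% were higher and 40% lower). Between the LPS groups, 2 probes were higher at 24 h, 7 were lower and 2 were neither, where 36.1% of all probes were higher and 36.5% lower.

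The LPS response itself differed between the times for 9 of the 11 probes, where 65.9% of all probes passed the same test. It was more positive at 24 h for 6 (37.6% of all probes) and less so for 3 (28.3% of all probes), namely Cxcl1, Cxcl10 and Cxcl11.

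Cell type markers moved between the groups as well, where 29.1% of all genes were higher and 44.2% lower at 4 h, and 22.7% higher and 22% lower at 24 h. The 10 microglial markers that passed the filter had a summed level of 163 to 173 in LPS 4 h and 217 to 225 in saline 4 h, and 103 to 106 in LPS 24 h and 77.8 to 83.2 in saline 24 h. Of these, 1 was higher and 6 were lower at 4 h, and 9 were higher and 1 lower at 24 h. The 10 endothelial markers summed to 20.6 to 20.9 in LPS 4 h and 52.6 to 53.6 in saline 4 h, with 9 of 10 lower, and to 34.8 to 37.7 in LPS 24 h and 26.8 to 28.2 in saline 24 h, with 9 of 10 higher. Hippocampal neuron markers summed to 92.7 to 94.8 in LPS 4 h and 71.9 to 74.4 in saline 4 h, and to 89.3 to 91.2 in LPS 24 h and 111 to 116 in saline 24 h. Markers of a neighbouring organ, the anterior pituitary, summed to 2.49 to 2.61 in LPS 4 h and 5.75 to 5.94 in saline 4 h, and to 1.51 to 1.62 in LPS 24 h and 1.73 to 1.79 in saline 24 h. Of 5 blood monocyte markers, 4 were higher at 4 h and 5 at 24 h, and they summed to 20.3 to 21.1 in LPS 4 h and 19.4 to 19.7 in saline 4 h, and to 20.7 to 22.5 in LPS 24 h and 9.3 to 9.95 in saline 24 h. Of 7 thalamus markers, 2 were higher and 4 lower at 4 h and 7 were higher at 24 h, summing to 14.3 to 14.4 in LPS 4 h and 19.7 to 20.5 in saline 4 h, and to 12.3 to 12.7 in LPS 24 h and 7.4 to 7.83 in saline 24 h. Of 7 choroid plexus markers, 2 were higher and 4 lower at 4 h and 5 were higher at 24 h, summing to 31.7 to 33 in LPS 4 h and 38.9 to 41.1 in saline 4 h, and to 45.7 to 46.9 in LPS 24 h and 31.2 to 33.1 in saline 24 h. With the saline arrays of the other time, microglial markers gave 7 higher and 2 lower at 4 h, and 2 higher and 7 lower at 24 h. Neuron markers went from 6 higher and 0 lower to 3 and 6 at 4 h, and from 0 and 7 to 6 and 3 at 24 h. Thalamus markers gave 6 higher and 1 lower at 4 h, and 3 and 3 at 24 h. Endothelial markers gave 4 higher and 6 lower at 4 h, and 7 higher and 3 lower at 24 h. The part of the marker shifts in the chemokine results was not tested.

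Of 10 receptor genes on the array, 8 passed the filter with 3 higher, 4 lower and 1 neither at 4 h, and 5 higher, 0 lower and 3 neither at 24 h. Over all genes, 29.1% were higher and 44.2% lower at 4 h, and 22.7% higher and 22% lower at 24 h. The receptors' median was 0.1 at 4 h and 0.42 at 24 h, against -0.15 and 0 over all genes. The median at 4 h was -0.17 with normexp and -0.03 in the deposited matrix, and normexp left 2 higher at 24 h. Cxcr1 and Cxcr5, the receptor for Cxcl13, were below background on every array.

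Cx3cr1, the microglial receptor of Cx3cl1, turned round between the times. Its levels were 0.24, 0.29 and 0.2 in LPS 4 h, against 1.57, 1.52 and 1.53 in saline 4 h, which is -1.3 ± 0.036 (adjusted p = 1.62e-09). In LPS 24 h they were 2.15, 2.14 and 2.1, against 1.44, 1.45 and 1.36 in saline 24 h, which is 0.71 ± 0.036 (adjusted p = 3.85e-07). The response differed between the times by 2.01 ± 0.051 (adjusted p = 3.12e-09), and a second probe of the gene gave -0.81 ± 0.066 at 4 h and 0.55 ± 0.066 at 24 h.

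The Cxcl12 receptor Cxcr4 rose while its ligand fell. Levels were -2.79, -2.66 and -2.72 in LPS 4 h, against -4.06, -3.98 and -3.88 in saline 4 h, a difference of 1.25 ± 0.068 (adjusted p = 1.13e-07). That at 24 h was 0.42 ± 0.068 (adjusted p = 0.000933), and 0.26 with normexp, no longer called. A second Cxcr4 probe rose less at 4 h, by 0.7 ± 0.11, and by 0.42 ± 0.11 at 24 h. Its response was not called different between the times (-0.28 ± 0.16, adjusted p = 0.143), unlike that of the first (-0.83 ± 0.097, adjusted p = 3.61e-05). Cxcr7, a scavenger of Cxcl12, was lower at 4 h by a little (-0.22 ± 0.041, adjusted p = 0.000678) and not called at 24 h (-0.08 ± 0.041, adjusted p = 0.153). Before scaling, the Cxcr7 intensity at 4 h had the opposite order, 1365 to 1522 in LPS and 897 to 937 in saline.

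Cxcr3, the receptor of Cxcl9 and Cxcl10, fell at 4 h when the RNA of these ligands rose. Its levels were -3.32, -3.23 and -3.38 in LPS 4 h, against -2.12, -2.09 and -1.96 in saline 4 h, which is -1.25 ± 0.077 (adjusted p = 2.53e-07). It was not called at 24 h (0.06 ± 0.077, adjusted p = 0.571), and its levels after LPS at 4 h were those of saline 24 h, with a difference of 0. Cxcr6, the receptor of Cxcl16, likewise fell at 4 h (-1.1 ± 0.091, adjusted p = 2.08e-06) and was not called at 24 h (0.18 ± 0.091, adjusted p = 0.141). Before scaling, the Cxcr6 intensities overlapped at 4 h, at 48 to 62.1 in LPS and 60.9 to 64.9 in saline, so the drop is relative to the rest of each array. T and NK cell markers, the cells that carry Cxcr3, were higher for 1 and lower for 7 of 9 at 4 h and higher for 4 and lower for 1 at 24 h, and Gzma was below background throughout. The shares of all genes were 29.1% and 44.2% at 4 h, and 22.7% and 22% at 24 h. Normexp left 0 higher and 2 lower at 4 h. Against the saline 24 h arrays, LPS 4 h gave 4 of these markers higher and 5 lower. Their summed level was 0.716 to 0.786 in LPS 4 h and 0.99 to 1.11 in saline 4 h, and their part in the Cxcr3 result was not tested.

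Darc, an endothelial decoy that binds many inflammatory chemokines, rose by 1.33 ± 0.067 at 4 h (adjusted p = 6.38e-08) and by 0.42 ± 0.067 at 24 h (adjusted p = 0.000826). The neutrophil receptor Cxcr2 was below background in both groups at 4 h and at least 1.28-fold higher in LPS 24 h (adjusted p = 0.000754). Ccrl1, another atypical receptor, was well above background on 1 of 3 LPS arrays and 0 of 3 saline arrays at 4 h, and rose by 1.83 ± 0.25 at 24 h (adjusted p = 0.000336). With normexp neither Cxcr2 nor Ccrl1 was called at 24 h.

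**Figure D4:**
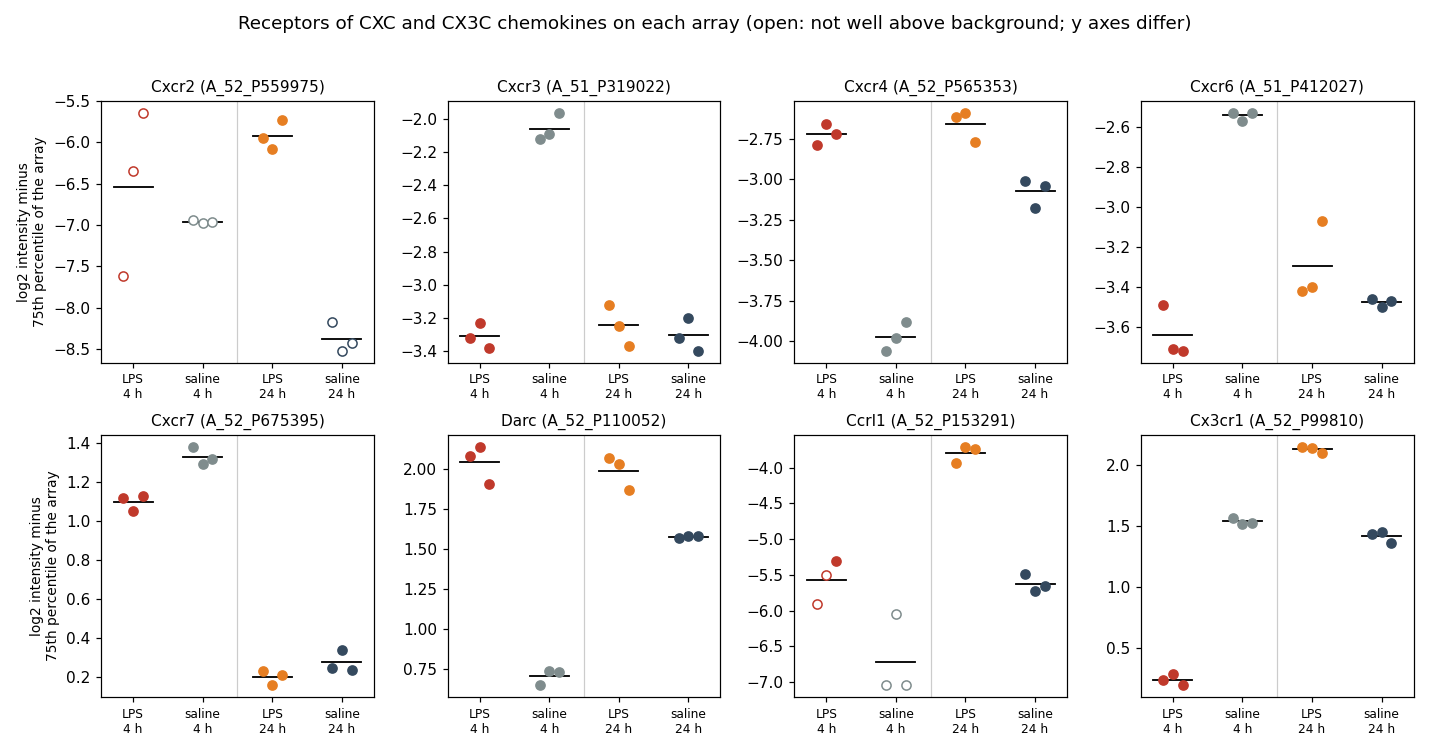
Level of the 8 receptor genes (log2 intensity minus the 75th percentile of the array, the probe with the highest mean signal) on each array, by group, with the mean of 3 as a bar and open points for arrays not well above background. Cx3cr1 is lower in LPS than in saline at 4 h and higher at 24 h, while Cxcr4 and Darc are higher at both times.

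Other CXC ligands on the array did not share one direction. Of 7, the 3 genes Cxcl3, Cxcl15 and Cxcl17 were below background throughout, and of the other 4, 1 was higher and 1 lower at 4 h and 0 were higher and 2 lower at 24 h. Among all genes, 29.1% were higher and 44.2% lower at 4 h, and 22.7% higher and 22% lower at 24 h, so counts of 4 genes say little. Cxcl5, a neutrophil attractant like Cxcl1, fell by 1.16 ± 0.04 at 4 h (adjusted p = 6.21e-09) and by 0.9 ± 0.04 at 24 h (adjusted p = 1.67e-07), opposite to Cxcl1. Cxcl14, a ligand made at rest in many tissues, rose by 0.97 ± 0.038 at 4 h (adjusted p = 1.34e-08) and was not called at 24 h (0.02 ± 0.038, adjusted p = 0.687). The platelet chemokine Pf4 was not called at 4 h (-0.12, adjusted p = 0.0941) or at 24 h (0.14, adjusted p = 0.0899). Ppbp, also of platelets, was below background in both groups at 4 h and fell by 1.39 ± 0.14 at 24 h (adjusted p = 4.76e-05), which normexp did not call.

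Cytokines that induce chemokines, and their receptors, were mostly higher. Of 12 that passed the filter, 9 were higher, 2 lower and 1 neither at 4 h (median 0.49), and 9 were higher, 0 lower and 3 neither at 24 h (median 0.42), of which normexp called 4, against 29.1% and 22.7% of all genes higher at these times. Against the saline 4 h arrays, LPS 24 h gave 5 higher and 6 lower. Il17a was below background throughout, and Ifnb1 rose above it on 1 array. Il1b rose by 3.11 ± 0.036 at 4 h (adjusted p = 3.02e-11) and by 1.7 ± 0.036 at 24 h (adjusted p = 2.11e-09). Il6 was at least 4.47-fold higher at 4 h (adjusted p = 2.82e-09) and below background in both groups at 24 h. Il1r1, the receptor of interleukin 1, rose by 0.94 ± 0.038 at 4 h, and the interferon gamma receptor chain Ifngr1 rose by 0.46 ± 0.027 at 4 h and by 0.6 ± 0.027 at 24 h. The tumour necrosis factor receptor Tnfrsf1a rose by 0.65 ± 0.029 and Il17ra by 0.5 ± 0.031 at 24 h. Ifng itself, singled out after its values were seen because it induces Cxcl9, was lower at 4 h (-1.38 ± 0.25, adjusted p = 0.000589) and not called at 24 h (0.33 ± 0.25, adjusted p = 0.321), and the 4 h call was lost with normexp (-0.59).

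The listed transcription factors, with their inhibitors, were mostly higher, though their action on these promoters was not measured. Of 16 that passed, 13 were higher, 1 lower and 2 neither at 4 h (median 0.64), and 14 were higher, 0 lower and 2 neither at 24 h (median 0.52), against 29.1% and 22.7% of all genes higher at these times. Against the saline 4 h arrays, LPS 24 h gave 9 higher and 7 lower. Nfkb2, a subunit of NF-kappaB, rose by 1.76 ± 0.039 at 4 h (adjusted p = 4.93e-10) and by 0.99 ± 0.039 at 24 h (adjusted p = 6.98e-08). The interferon regulatory factor Irf7 rose by 1.59 ± 0.067 at 4 h (adjusted p = 1.94e-08) and by 2.74 ± 0.067 at 24 h (adjusted p = 3.73e-09). Stat3 rose by 0.89 ± 0.037 at 4 h, and Irf1 rose by 0.57 ± 0.038 at 24 h. Irf8, a factor of microglia and other myeloid cells, was the exception, lower at 4 h (-0.75 ± 0.037, adjusted p = 5.37e-08) and higher at 24 h (0.79 ± 0.037, adjusted p = 2.22e-07), the directions shown by Cx3cr1.

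Proteases that shed or trim these chemokines gave 4 higher, 1 lower and 2 neither of 7 at each time, and 2 higher at each time with normexp. Among all genes, 29.1% were higher and 44.2% lower at 4 h, and 22.7% higher and 22% lower at 24 h. Adam17, which cleaves Cx3cl1 from the membrane, rose by 0.9 ± 0.067 at 4 h (adjusted p = 1.03e-06) and by 0.36 ± 0.067 at 24 h (adjusted p = 0.00217). Adam10, which cleaves Cx3cl1 and Cxcl16, was at least 4.06-fold higher at 4 h (adjusted p = 7.89e-06) and not called at 24 h (adjusted p = 0.484). The neutrophil collagenase Mmp8 was at least 2.25-fold higher at 4 h (adjusted p = 4.4e-06) and below background in both groups at 24 h. Ctss, a lysosomal protease of microglia, rose by 0.8 ± 0.043 at 24 h (adjusted p = 5.76e-07), and Mmp2 rose by 0.47 ± 0.067 (adjusted p = 0.00041). At 4 h Ctss was lower with the scaling used here (-0.57 ± 0.043, adjusted p = 1.16e-06) but 0.09 with quantile normalization, called higher.

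Genes of receptor signalling and desensitization gave 3 higher, 3 lower and 3 neither of 9 at 4 h, and 3 higher, 0 lower and 6 neither at 24 h. The shares over all genes were 29.1% higher and 44.2% lower at 4 h, and 22.7% higher and 22% lower at 24 h. Rgs2, which speeds the shut-off of G proteins, was lower at 4 h (-1.52 ± 0.042, adjusted p = 1.62e-09) and higher at 24 h (0.54 ± 0.042, adjusted p = 8.15e-06). Rgs1, which does so in leukocytes, rose by 1.27 ± 0.074 at 4 h (adjusted p = 1.67e-07) and by 0.33 ± 0.074 at 24 h (adjusted p = 0.00594). The G protein subunit Gnb1 was lower at 4 h (-0.63 ± 0.036, adjusted p = 1.35e-07), and Gnai2 rose by 0.28 ± 0.046 at 24 h (adjusted p = 0.00108). Arrb1, an arrestin, was lower at 4 h (-0.49 ± 0.057, adjusted p = 3.02e-05) but not with quantile normalization (-0.05).

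The genes with the most similar pattern over the 12 arrays were found for each chemokine among 14280 other named genes, from 1 probe each, which for Cxcl12, Cxcl16 and Cx3cl1 was A_51_P172502, A_51_P374203 and A_51_P196925, so that the other, differing probe was not used. For Cxcl10 they were Plin4 (r = 0.999), Csf2rb (r = 0.999) and Ccl2 (r = 0.998), a monocyte chemokine that differed by 2.72 at 4 h and 2.44 at 24 h. For Cxcl11 they were Isg20, Socs3 and Ifit2, each at r = 0.993. For Cxcl13 they were Oas1a (r = 0.994), Renbp (r = 0.993) and Lilrb3 (r = 0.991), and for Cxcl16 they were Slc43a3 (r = 0.998), Oasl2 (r = 0.997) and H2-Q8 (r = 0.995). For Cxcl9 they were Tnfrsf1a (r = 0.997), Slco4a1 (r = 0.995) and Csf2rb2 (r = 0.994), and for Cxcl1 they were Cdh5 (r = 0.993), Asb4 (r = 0.993) and Stat3 (r = 0.992). For Cxcl12 they were Arpp21 (r = 0.992), Tram1l1 (r = 0.992) and Eno2 (r = 0.989). For Cx3cl1 they were Rpl11 (r = 0.997), Ndufv3 (r = 0.996) and Ndufa13 (r = 0.996). These r are Pearson's and describe 4 group means more than 12 independent points, since the groups differ far more than the arrays within them.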

How the data were processed

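The 12 Agilent arrays are single-colour (Cy3), each of hippocampal RNA. The deposited array files give processed intensity per spot; per the file headers, Feature Extraction 10.7.3.1 subtracted background, while the submitters' processing notes name 9.1. The deposited matrix, used as an alternative, holds log2 values with array medians of 6.98 to 6.99, uncentred; they lie within 0.126 of normexp (offset 50) plus quantile normalization. Here log2 intensities were taken, 12 non-uniform outlier spots were left out, repeated spots were averaged and each array's 75th percentile was subtracted. No transcript spot was saturated (0 spots). The 4 group means were fitted with limma 3.58.1 in R 4.3.3, tested on simulated data first. Lower bounds use means of log2 values: the brighter group's over all its arrays, against, per array, the lowest signal called well above background or the probe's own if higher. The number of arrays limits precision, and p-values cover the spread between these animals. Probe positions are those of the files (mm9); exon and UTR were not assigned. Promoters are RefSeq's (GRCm38.p6). Alternatives covered background, scaling, filter, probe rule, blocks, moderation, weights, arrays and controls. Named are all chemokine probes, all receptors and other CXC ligands, and the 4 genes of each further list with the smallest adjusted p per time. Members and lists were chosen with earlier results of these data known. Replicate numbers were not taken as pairs (correlations of deviations from -0.151 to 0.165), although at 24 h they match the slides.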

Additional observations from a re-analysis of the deposited data

Results flagged for a closer look

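The LPS response at 24 h minus that at 4 h, a difference between the responses tested in the same fit, passed the threshold for 9 of the 11 chemokine probes, where 65.9% of all probes passed. It was higher at 24 h for Cxcl13 (2.59, adjusted p = 3.21e-07), Cxcl16 A_51_P374203 (1.46, adjusted p = 1.05e-08), Cxcl9 (0.45, adjusted p = 0.000419), both Cxcl12 probes, whose drop was smaller at 24 h (1.19 and 0.29, adjusted p = 1.52e-07 and 0.0304), and Cx3cl1 A_51_P196925 (0.5, adjusted p = 0.000154). It was lower at 24 h for Cxcl1 (-4.17, adjusted p = 1.48e-07), Cxcl11 (-2.54, adjusted p = 0.000182) and Cxcl10 (-0.21, adjusted p = 0.0347). The values for Cxcl1 and Cxcl11 are fitted to saline arrays below background. With the block by replicate number the probes called were 5 higher and 2 lower.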

How the results depend on the processing

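Of the chemokine results under the alternatives, 650 values for single probes kept their side of the threshold, 30 lost the call, 12 gained it and 12 turned in sign with a call on at least 1 side. The 650 include values of Cx3cl1 called under neither setting whose sign changed (A_51_P205129 at 4 h, -0.08 with normexp). The causes were not tested. With normexp, all-probe counts were 4536 higher at 4 h and 2181 higher and 1920 lower at 24 h (against 8757, 5754 and 5794), and 1 chemokine probe was lower at 24 h. With the deposited matrix, 3832 probes were higher at 24 h and 2 chemokine probes lower at 4 h. Fewer features were tested with 1 probe per gene (5328 higher at 4 h; 1 chemokine lower at 24 h) and with the mean of a gene's probes (5464 higher at 4 h, 3562 lower at 24 h; 1 chemokine lower at each time). With only probes detected on all 12 arrays, 1 response was lower at 24 h than at 4 h. The saline arrays of the other time gave 11051 higher and 11074 lower at 24 h, and 3 and 7 among the chemokines. With the scaling used here, they turned the sign of Cxcl9 (-0.6) and Cxcl16 (-0.47 and -0.5) at 24 h, and Cxcl10 was -0.01 (adjusted p = 0.823). Before scaling, the mean intensities of Cxcl9, Cxcl10 and Cxcl16 were higher in LPS 24 h than in saline 4 h. The value of Cxcl11 (-0.68) is set against a level below background and is no measured drop. They also turned Cx3cl1 (0.28 and -0.71) and Cxcl16 A_51_P374203 (1.68) at 4 h. Cx3cl1 A_51_P196925 at 4 h was 0.02 with quantile and 0.01 in the deposited matrix, and the difference between the Cxcl9 responses was -0.1 with normexp and -0.36 in the deposited matrix.

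Leaving out each array gave 8302 to 8535 probes higher and 10279 to 10797 lower at 4 h, and 5015 to 5553 higher and 4815 to 5722 lower at 24 h. Among the chemokines it gave 6 to 7 higher and 4 lower at 4 h, and 7 higher and 2 lower at 24 h. Responses differing between the times numbered 5 to 7 higher and 2 to 4 lower. The replicate block, by numbers that match slides at 24 h and not at 4 h, gave 8518 higher and 10725 lower at 4 h and 5189 and 4782 at 24 h. It left the counts of chemokines at 4 h (6 and 4) and at 24 h (7 and 2) as they were, and ended the calls of a differing response for Cxcl10 (adjusted p = 0.0507) and Cxcl12 A_52_P685021 (adjusted p = 0.0546). Leaving out population outlier flags, chosen after the data were seen, changed no call of a chemokine. Signals near background (Cxcl1 and Cxcl11 in saline, Cxcl2 throughout) allow bounds only.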
